A study of Homo sapiens with 32 samples.

Results

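The 10 genes described here encode the adaptors and proximal kinases that carry the signal of the receptor RANK into the cell: TRAF2, TRAF3, TRAF5, TRAF6, MAP3K14, TAB1, TAB2, GAB2, SRC and CBL. They were chosen by gene symbol from the 61541 genes of the count table. The symbols matched 11 rows, and the additional row under TAB2 (ENSG00000228408, a lincRNA in GENCODE release 29) had 0 counts in all 32 libraries and was left out. Polyadenylated RNA was sequenced from TCam-2, a line derived from a seminoma and grown in RPMI medium, and from NTera2, a line derived from an embryonal carcinoma and grown in DMEM, both with fetal bovine serum. Each tumour type was therefore represented by a single cell line, and line and medium cannot be told apart. Within each line, cells received OPG, denosumab, RANKL or vehicle (D-PBS) for 48 h, with 4 libraries from independent experiments in each of the 8 groups. The protocol gives 1 µg/ml for OPG and for RANKL. It lists RANKL again in the place of denosumab and gives no dose for denosumab, so that treatment rests on the sample labels alone.

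RANK has no enzyme activity of its own. When its ligand RANKL binds, TRAF proteins dock on its cytoplasmic tail, and TRAF6, through TAB1, TAB2 and the kinase TAK1, switches on the canonical NF-kB and MAP kinase pathways, while MAP3K14 (NIK) drives the non-canonical NF-kB pathway. The scaffold GAB2, the tyrosine kinase SRC and the ubiquitin ligase CBL link the receptor to phosphoinositide 3-kinase signalling. The pathway is best known from osteoclasts, the bone-resorbing cells, which RANKL induces. OPG, a decoy receptor, and denosumab, an antibody, both bind RANKL and keep it from RANK.

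Library totals lay between 10585247 and 20257935 counts in TCam-2 and between 11385500 and 30499538 in NTera2. The line labels were checked against markers. The 6 seminoma markers summed to 1942 to 2262 counts scaled to library size (CPM) in TCam-2 and 172.1 to 190.0 CPM in NTera2. The 5 embryonal carcinoma markers summed to 990.8 to 1280.0 CPM in TCam-2 and 3064 to 3694 CPM in NTera2. Most of the TCam-2 sum was PODXL (908.0 to 1188.0 CPM). SOX2 lay between 0.694 and 4.79 CPM in TCam-2 and between 222.4 and 335.8 CPM in NTera2. Of the 3 shared pluripotency markers, POU5F1 and NANOG were higher in TCam-2 and LIN28A was lower. The 6 immune markers summed to 1.25 to 4.16 CPM in TCam-2 and 0.403 to 1.63 CPM in NTera2, with PTPRC at 0 in 15 of the 16 TCam-2 and all 16 NTera2 libraries. The 6 fibroblast markers summed to 251.2 to 311.0 CPM in TCam-2, nearly all of it COL1A2, and 56.4 to 72.7 CPM in NTera2. COL1A1 went the other way, with 5.41 to 10.4 CPM in TCam-2 and 21.9 to 33.5 CPM in NTera2. So did PDGFRB, with 2.25 to 5.16 CPM in TCam-2 and 31.4 to 42.5 CPM in NTera2. DCN and LUM were at most 0.768 CPM, and FAP was at 0 in every library. The part of these marker differences in the results was not tested. The RNA integrity number (RIN) was at least 8.3 except in TCam-2 RANKL replicates 2 (6.1) and 4 (3.7), and NTera2 vehicle replicate 1 had none.

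The sequences upstream of GAB2 and TRAF5 are shown because these 2 genes differed most between the lines, in opposite directions. They are the 250 bases before an annotated start in RefSeq (build GRCh38.p14), written 5′ to 3′ on the strand of the gene, and capitals mark the GC box GGGCGG, the E-box CACGTG or the octamer ATGCAAAT on either strand.
GAB2, chr11:78417821-78418070, minus strand: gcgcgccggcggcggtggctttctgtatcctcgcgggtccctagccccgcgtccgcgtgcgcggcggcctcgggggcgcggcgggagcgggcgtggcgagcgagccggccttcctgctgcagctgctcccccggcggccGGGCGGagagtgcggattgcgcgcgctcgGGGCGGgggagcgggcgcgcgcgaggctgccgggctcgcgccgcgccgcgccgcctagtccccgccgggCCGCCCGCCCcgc
GAB2, chr11:78341920-78342169, minus strand: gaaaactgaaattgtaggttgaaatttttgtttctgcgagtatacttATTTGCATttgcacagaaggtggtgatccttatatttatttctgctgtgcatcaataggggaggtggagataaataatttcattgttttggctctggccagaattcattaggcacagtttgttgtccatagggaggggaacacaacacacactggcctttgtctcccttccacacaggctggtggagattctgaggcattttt
TRAF5, chr1:211326385-211326634, plus strand: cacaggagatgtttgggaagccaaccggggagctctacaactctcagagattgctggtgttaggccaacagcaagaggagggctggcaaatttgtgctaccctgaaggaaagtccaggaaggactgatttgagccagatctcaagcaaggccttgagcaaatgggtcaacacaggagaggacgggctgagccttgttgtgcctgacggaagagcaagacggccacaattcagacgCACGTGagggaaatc
The upstream GAB2 window held 51 CpG dinucleotides, 84% G and C and 4 matches to GGGCGG, which overlap in part, against 1 CpG, 41.2% and 0 matches in the downstream window, where the capitals mark ATGCAAAT. The TRAF5 window shown held 6 CpG and 53.6% G and C, and its capitals mark CACGTG. Another TRAF5 window, chr1:211326583-211326832, overlaps it and holds the same CACGTG, with 29 CpG, 68.4% G and C and 3 matches to GGGCGG. The remaining TRAF5 window, chr1:211346114-211346363, held 2 CpG, 45.6% G and C and 0 matches to GGGCGG. Over all 35116 RefSeq windows of this length the medians were 11 CpG and 58% G and C. Counts per gene do not tell which start was used.

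RefSeq windows were at hand for 8 of the 10 genes, 12 windows in all; SRC and CBL had none. The GC box was found in 8 of the 12, against 42.6% of all windows. The NF-kB consensus was found in 2 of the 12, of TAB2 and TRAF3, against 9.96% of all windows, and it can overlap a GC box. The E-box was found in 2, against 6.34%, but both are overlapping windows of TRAF5 that hold the same CACGTG. The octamer was found in 1, against 1.63%. The AP-2 form GCCNNNGGC, which can overlap a GC box as well, was found in 5 of the 12, against 19.8%. The AP-1 form TGANTCA, the ETS form CCGGAAG, the cAMP response element TGACGTCA, the TATA box form TATAAA and the SOX form ACAATGG had 0 matches in the 12 windows on either strand, and were found in between 1.65% and 10.7% of all windows. These matches describe letters only.

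The lines differed in most of the 10 genes. In vehicle libraries TCam-2 had more GAB2, TAB2 and MAP3K14 and less TRAF2, TRAF3, TRAF5 and SRC RNA than NTera2, and TRAF6, TAB1 and CBL did not pass the test. These 7 of 10 genes stand beside 76.2% of the 16816 genes tested (12813 genes, edgeR quasi-likelihood test, adjusted p under 0.05), so the share is near that of all genes. In RANKL libraries 7 of 10 were called, beside 74.3% of all genes; in OPG libraries 9 of 10, beside 76.2%; and in denosumab libraries 7 of 10, beside 79.7%. GAB2, TAB2, TRAF2, TRAF3, TRAF5 and SRC were called in the same direction in all 4 treatments, TRAF6 in 3, MAP3K14 in 2, TAB1 in 1 and CBL in 0. The median size of the log2 fold change in vehicle libraries was 0.68 over the 10 genes and 0.84 over all genes. A lower CPM in such bulk libraries does not separate fewer expressing cells from less RNA per cell.

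**Figure D1:**
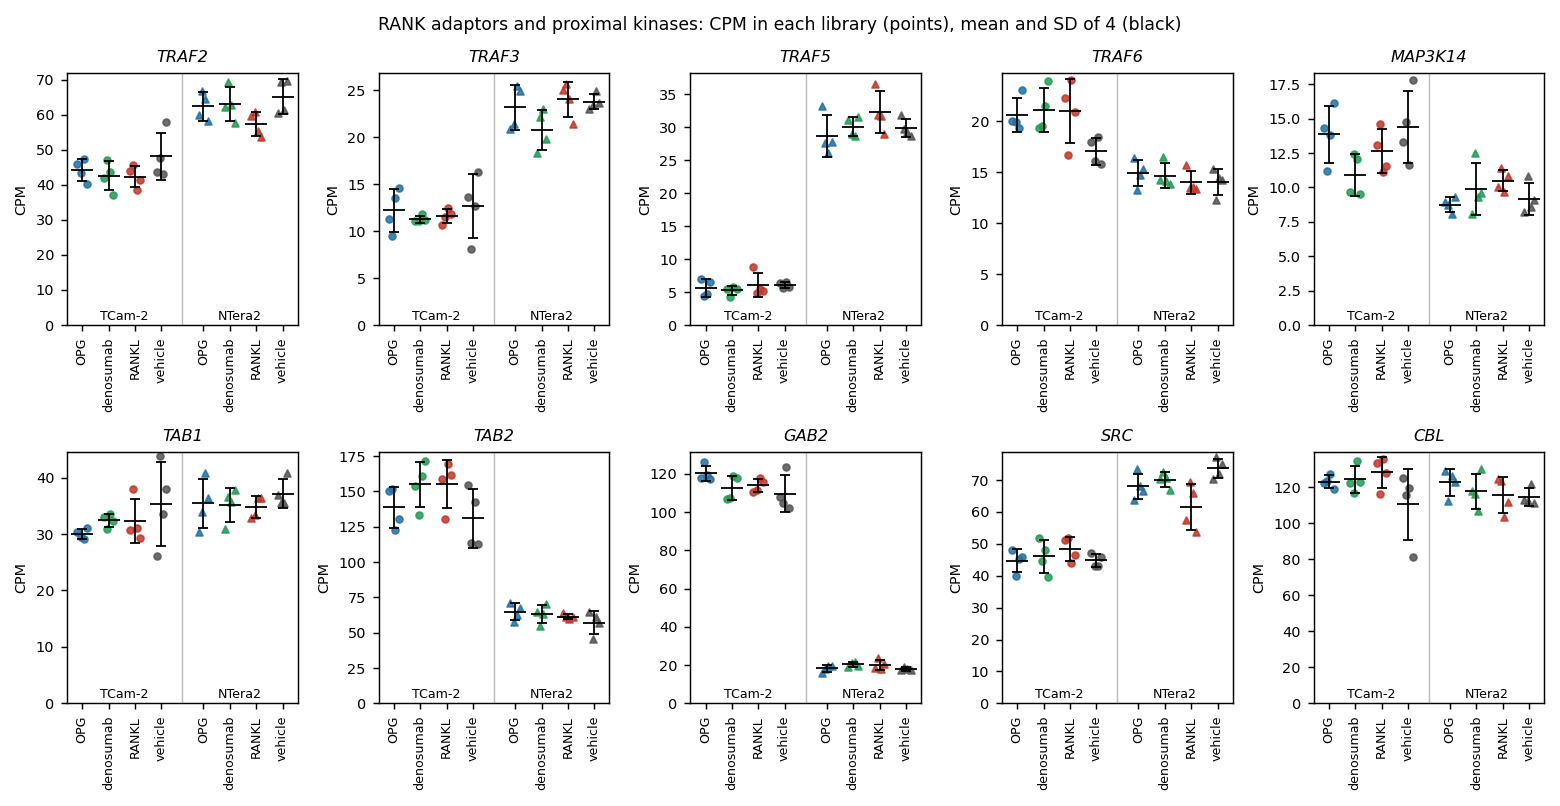
Level (CPM, linear axis from 0) of each of the 10 genes in every library, by line and treatment. Circles are TCam-2 and triangles NTera2 libraries, and black bars are the mean and SD of 4 libraries. GAB2 lay between 102 and 126 CPM in TCam-2 and between 16.02 and 23.6 CPM in NTera2, and TRAF5 between 4.22 and 8.82 CPM in TCam-2 and between 26.0 and 36.5 CPM in NTera2.

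The 4 TRAF genes did not move together between the lines. TRAF5 (ENSG00000082512; hg38 chromosome 1, 211326615 to 211374940), an adaptor that binds RANK and other receptors of the TNF family, had 6.41, 5.61, 6.57 and 5.82 CPM in the TCam-2 vehicle libraries, against 31.8, 29.7, 29.3 and 28.6 CPM in the NTera2 vehicle libraries. The ranges lay far apart. TRAF5 was lower in TCam-2 by a log2 fold change of -2.29 (SE 0.123, adjusted p 4.05e-11 by edgeR), and the change was -2.36 with OPG, -2.54 with denosumab and -2.43 with RANKL. Of all genes tested in vehicle libraries, 80.1% had a smaller change.

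TRAF3 (ENSG00000131323; chromosome 14, 102777449 to 102911500), which holds MAP3K14 for degradation in resting cells, had 13.6, 8.13, 12.7 and 16.3 CPM in TCam-2 vehicle libraries, against 23.0, 23.4, 24.9 and 23.6 CPM in NTera2 vehicle libraries. Every TCam-2 library lay below every NTera2 library, although the TCam-2 values were spread about their mean of 12.7 CPM by an SD of 3.39 and the NTera2 values about 23.7 CPM by an SD of 0.801 (n = 4 each). On the log2 scale TCam-2 was lower by a fold change of -0.90 (edgeR SE 0.157, adjusted p 6.26e-05), which lay between -0.92 and -1.06 with the other treatments.

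TRAF2 (ENSG00000127191; chromosome 9, 136881912 to 136926607), the partner of TRAF3 in that complex, had 43.7, 47.6, 43.2 and 57.8 CPM in TCam-2 vehicle libraries, against 60.4, 69.3, 61.3 and 69.6 CPM in NTera2 vehicle libraries. The groups did not overlap, but replicate 4 of TCam-2 stood close to the NTera2 range. TRAF2 was lower in TCam-2, at -0.44 on the log2 scale (edgeR SE 0.103, adjusted p 0.000976).

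TRAF6 (ENSG00000175104; chromosome 11, 36483769 to 36510272), the ubiquitin ligase that mice need to make working osteoclasts, went the other way. It had 17.97, 16.1, 18.5 and 15.8 CPM in TCam-2 vehicle libraries, against 15.3, 12.3, 14.5 and 14.2 CPM in NTera2 vehicle libraries. Here every TCam-2 value lay above every NTera2 value by a small margin, and the log2 fold change of 0.28 (SE 0.125) missed the threshold with an adjusted p of 0.0555 by edgeR. TRAF6 was higher in TCam-2 in the other treatments, by 0.45 with OPG, 0.49 with denosumab and 0.57 with RANKL (adjusted p by edgeR 0.00231 with OPG, 0.000406 with denosumab and 0.000859 with RANKL). With library totals alone as the scale, the OPG value was 0.26 and was not called (adjusted p 0.0641).

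Of the kinases and their binding partners, TAB2 (ENSG00000055208; chromosome 6, 149218641 to 149411395), which binds ubiquitin chains and brings TAK1 to TRAF6, had 154.5, 113.8, 142.7 and 113.1 CPM in TCam-2 vehicle libraries, against 64.7, 45.8, 61.0 and 57.2 CPM in NTera2 vehicle libraries. The lowest TCam-2 library was well above the highest NTera2 library. TAB2 was higher in TCam-2 by 1.19 on the log2 scale (edgeR SE 0.117, adjusted p 9.24e-08), and with the other treatments it lay between 1.08 and 1.33. Its partner TAB1 (ENSG00000100324; chromosome 22, 39399778 to 39436823), an activating subunit of TAK1, showed no such gap, with 26.2, 43.8, 33.6 and 38.0 CPM in TCam-2 vehicle libraries and 36.9, 35.5, 35.5 and 40.8 CPM in NTera2 vehicle libraries. The groups overlapped, and the log2 fold change of -0.07 had a 95% interval of -0.36 to 0.21. TAB1 was lower in TCam-2 with OPG (-0.25, adjusted p 0.0299 by edgeR), a call lost without NTera2 OPG replicate 3 (adjusted p 0.112), without NTera2 OPG replicate 4 (0.0632) or without TCam-2 OPG replicate 3 (0.0575).

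MAP3K14 (ENSG00000006062; chromosome 17, 45263119 to 45317020), the kinase NIK, had 13.3, 14.8, 11.7 and 17.8 CPM in TCam-2 vehicle libraries, against 8.20, 10.9, 8.61 and 9.09 CPM in NTera2 vehicle libraries. The groups were apart, and MAP3K14 was higher in TCam-2 by 0.65 on the log2 scale (edgeR SE 0.16, adjusted p 0.00156). With OPG it was also 0.65 (adjusted p 0.000601), whereas it was 0.11 with denosumab and 0.26 with RANKL, where the 95% intervals of -0.21 to 0.43 with denosumab and -0.06 to 0.57 with RANKL include 0. The difference between the treatments was itself tested by the interactions of line and treatment, given with the treatments. Exons of MAP3K14 share 713 of 5784 bases with MAP3K14-AS1 on the opposite strand, and the strand setting of the counting was not given in the sources used here, so part of the count could belong to either. MAP3K14-AS1 itself lay between 0 and 1.11 CPM in the 16 TCam-2 libraries and between 4.11 and 8.06 CPM in the 16 NTera2 libraries, and its part in the MAP3K14 count was not tested.

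The scaffold was higher in TCam-2, the tyrosine kinase was lower, and the ubiquitin ligase did not pass the test. GAB2 (ENSG00000033327; chromosome 11, 78215293 to 78418348), a docking protein that mice need for full osteoclast formation, had 107.9, 104.8, 123.7 and 102.1 CPM in TCam-2 vehicle libraries, against 17.4, 19.2, 17.9 and 17.5 CPM in NTera2 vehicle libraries. No library came near the other line. The log2 fold change of 2.61 (SE 0.0914, adjusted p 1.74e-13 by edgeR) is a 6.09-fold difference, and 83.0% of all genes tested had a smaller one; it was 2.7 with OPG, 2.43 with denosumab and 2.49 with RANKL.

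SRC (ENSG00000197122; chromosome 20, 37344685 to 37406050), a tyrosine kinase that osteoclasts need to resorb bone in mice, had 47.1, 43.2, 43.0 and 46.0 CPM in TCam-2 vehicle libraries, against 70.3, 77.1, 72.0 and 75.1 CPM in NTera2 vehicle libraries. The groups were apart, with a log2 fold change of -0.72 (SE 0.0799, adjusted p 4.22e-07 by edgeR). It was -0.62 with OPG, -0.64 with denosumab and -0.36 with RANKL, and all were called.

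CBL (ENSG00000110395; chromosome 11, 119206298 to 119313926), an E3 ubiquitin ligase and SRC substrate, had 125.1, 115.7, 119.8 and 81.4 CPM in TCam-2 vehicle libraries and 113.0, 112.5, 122.0 and 111.2 CPM in NTera2 vehicle libraries. The ranges overlapped, with replicate 4 of TCam-2 alone below the rest. The log2 fold change was -0.06 with a 95% interval of -0.29 to 0.18, and over the 4 treatments the values lay between -0.06 and 0.14. CBL shares 509 of 11740 exon bases with MCAM on the opposite strand. MCAM lay between 175.1 and 226.3 CPM in the 16 TCam-2 libraries and between 49.7 and 63.3 CPM in the 16 NTera2 libraries, and its part in the CBL count was not tested.

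**Figure D2:**
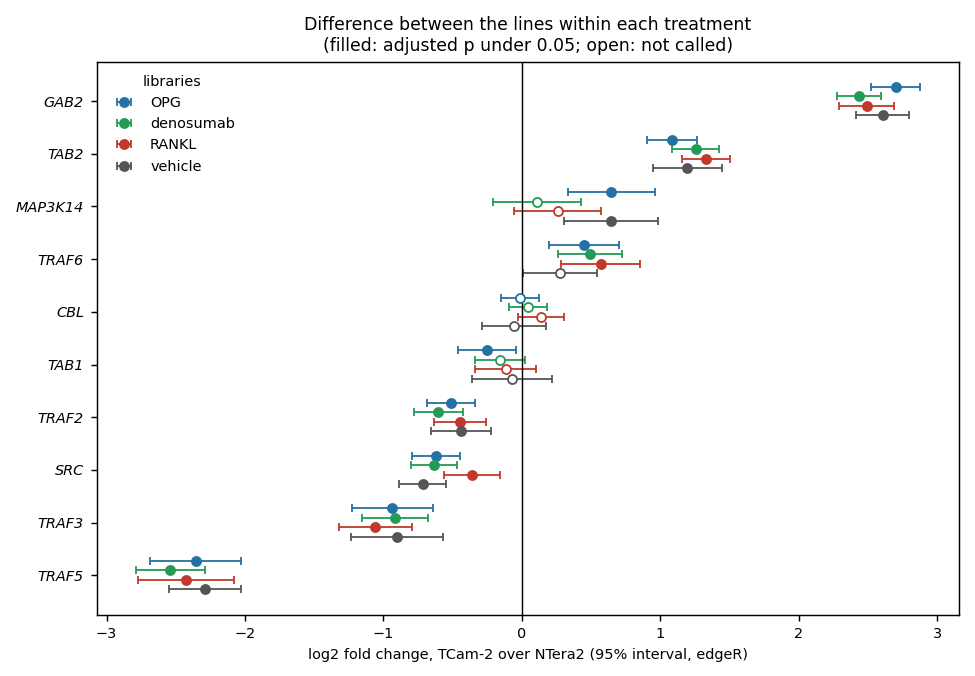
Log2 fold change of TCam-2 over NTera2 (x axis) for each gene (rows) within each treatment (colours), with 95% intervals; filled points passed an adjusted p of 0.05 by edgeR and open points did not. GAB2 lay between 2.43 and 2.7 and TRAF5 between -2.54 and -2.29, while the CBL values lay between -0.06 and 0.14.

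Over all treatments the 16 TCam-2 libraries did not overlap the 16 NTera2 libraries for 5 of the 10 genes, beside 47.3% of all 19216 genes with enough counts. GAB2 (mean 114.2 ± 6.997 CPM in TCam-2 and 19.2 ± 1.89 CPM in NTera2, SD, n = 16 each) and TAB2 (144.9 ± 18.8 CPM in TCam-2 and 61.6 ± 6.18 CPM in NTera2) were higher in every TCam-2 library. TRAF5 (5.76 ± 1.14 CPM in TCam-2 and 30.2 ± 2.57 CPM in NTera2), TRAF3 (11.9 ± 1.95 CPM in TCam-2 and 22.9 ± 2.14 CPM in NTera2) and SRC (46.0 ± 3.69 CPM in TCam-2 and 68.3 ± 6.07 CPM in NTera2) were lower in every TCam-2 library. The other 5 overlapped, and their mean in TCam-2 was between 0.715 times (TRAF2) and 1.38 times (TRAF6) their mean in NTera2. The spread over 16 libraries was wider in TCam-2 for 8 of the 10 genes, and how many of all genes were so was not counted. Coefficients of variation lay between 6.13% (GAB2) and 19.8% (TRAF5) in TCam-2 and between 6.84% (CBL) and 13.3% (MAP3K14) in NTera2. TRAF5 had 42 to 131 counts a library in TCam-2 and 343 to 1195 in NTera2. The part of count depth and RNA quality in these spreads was not tested.

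Levels of different genes were compared as CPM per kilobase of the deposited gene length. In TCam-2 the order of these levels was TAB2 (24.5), GAB2 (16.9), TRAF2 (12.1), CBL (10.4), TAB1 (7.36), SRC (6.44), TRAF6 (2.45), MAP3K14 (2.28), TRAF3 (1.44) and TRAF5 (0.639). The ranges of TAB2 and GAB2, of SRC and TRAF6, and of TRAF3 and TRAF5 did not overlap; every other pair of neighbours overlapped. In NTera2 the order was TRAF2 (16.9), TAB2 (10.4), CBL (10.05), SRC (9.57), TAB1 (8.07), TRAF5 (3.35), GAB2 (2.84), TRAF3 (2.77), TRAF6 (1.78) and MAP3K14 (1.69). There the gaps lay between TRAF2 and TAB2, between TAB1 and TRAF5, and between TRAF3 and TRAF6. GAB2 stood at order 2 in TCam-2 and at order 7 in NTera2, and TRAF5 at order 10 in TCam-2 and at order 6 in NTera2. Among 19216 genes by this level, GAB2 stood at percentile 85.4 in TCam-2 and 54.3 in NTera2, and TRAF5 at percentile 30.2 in TCam-2 and 57.7 in NTera2.

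**Figure D3:**
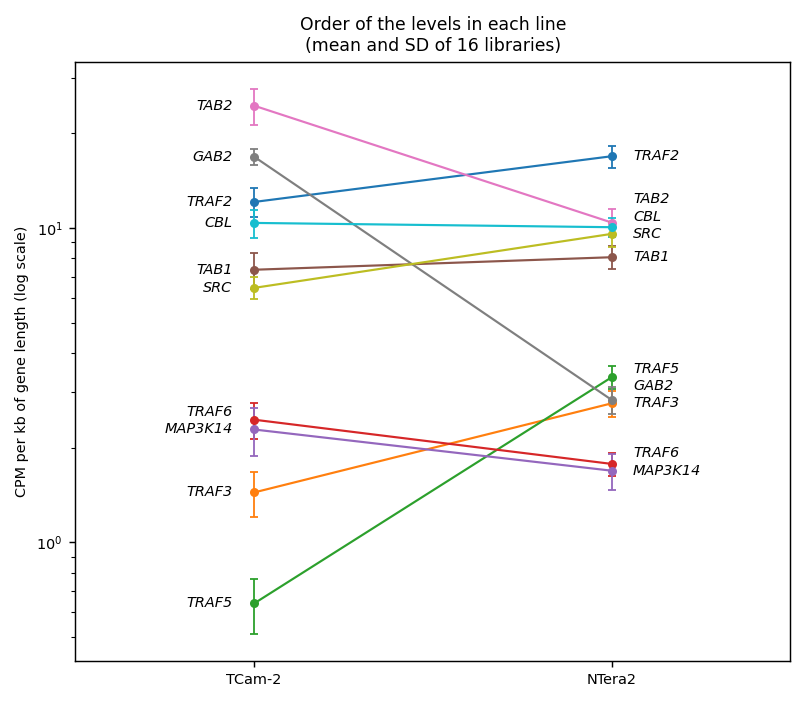
Level of each gene in CPM per kilobase of gene length (log axis) in TCam-2 (left) and NTera2 (right), mean and SD of 16 libraries, with a line joining the same gene. GAB2 is at 16.9 in TCam-2 and 2.84 in NTera2 and TRAF5 at 0.639 in TCam-2 and 3.35 in NTera2, so their lines cross, while CBL is at 10.4 in TCam-2 and 10.05 in NTera2.

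OPG, denosumab and RANKL were each compared with vehicle within a line, which asks whether the treatments changed the RNA of the adaptors. In all 6 comparisons 0 of the 10 genes passed an adjusted p of 0.05 by edgeR, beside 0% of all genes tested. DESeq2 called 0 of the 10 too. Over all genes, edgeR gave an unadjusted p under 0.05 for 1442 genes with OPG, 1090 with denosumab and 1482 with RANKL in TCam-2, and for 291 with OPG, 1258 with denosumab and 1787 with RANKL in NTera2. Of all genes, DESeq2 called 7 with OPG, 0 with denosumab and 1 with RANKL in TCam-2, and 0 with OPG, 14 with denosumab and 0 with RANKL in NTera2. The 60 log2 fold changes of the 10 genes lay between -0.43 and 0.28, and the smallest adjusted p was 0.368. Their 95% intervals reached from -0.75 to 0.53 at most, so 0 of the 60 intervals include a doubling or a halving.

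**Figure D4:**
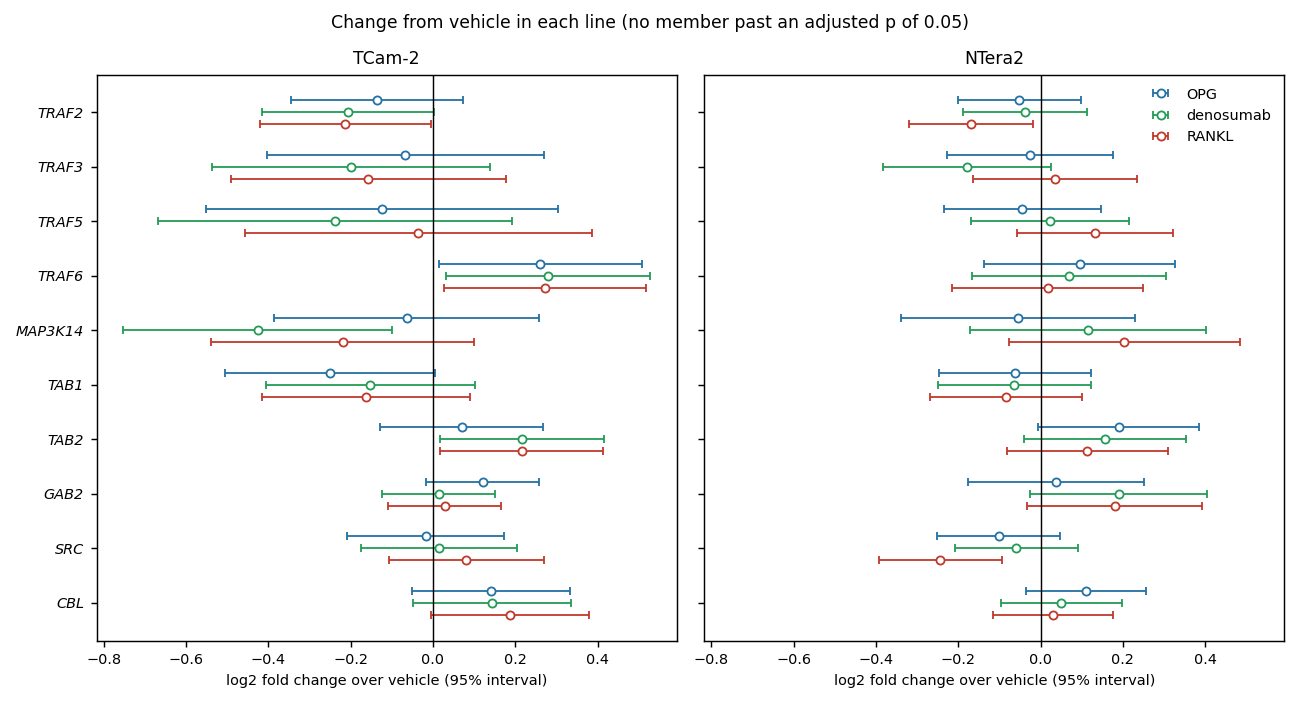
Log2 fold change over vehicle (x axis) for each gene (rows) with OPG, denosumab and RANKL (colours) in TCam-2 and NTera2, with 95% intervals from edgeR; open points mark that none passed an adjusted p of 0.05. The values lie between -0.43 (MAP3K14 with denosumab in TCam-2) and 0.28 (TRAF6 with denosumab in TCam-2).

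Among these values, 9 of 60 had an unadjusted p under 0.05, of which 7 of 30 were in TCam-2 and 2 of 30 in NTera2. Of all genes tested, 8.68% with OPG, 6.56% with denosumab and 8.92% with RANKL had such a p in TCam-2, and 1.68% with OPG, 7.25% with denosumab and 10.3% with RANKL in NTera2. In TCam-2 they were TRAF6 with all 3 treatments, TAB2 with denosumab (0.22) and RANKL (0.22), MAP3K14 with denosumab and TRAF2 with RANKL (-0.21). TRAF6 had 20.01, 19.98, 19.3 and 23.1 CPM in TCam-2 with OPG, 19.4, 19.6, 21.5 and 24.0 CPM with denosumab and 22.3, 16.8, 24.1 and 21.0 CPM with RANKL, against 17.97, 16.1, 18.5 and 15.8 CPM with vehicle. The OPG and denosumab libraries lay above all vehicle libraries. The RANKL libraries overlapped the vehicle libraries through replicate 2 (RIN 6.1), while RANKL replicate 4 (RIN 3.7, 21.0 CPM) lay above every vehicle library. Each treatment was above vehicle in 4 of 4 same-passage pairs. The log2 fold change was 0.26 with OPG (SE 0.12), 0.28 with denosumab (SE 0.12) and 0.27 with RANKL (SE 0.119), with adjusted p of 0.563 with OPG, 0.731 with denosumab and 0.557 with RANKL by edgeR. The 3 comparisons share the same vehicle libraries, so they are not independent. How many of all genes had groups apart, or 4 of 4 pairs on the same side, was not counted. This holds for the treatment and inhibitor comparisons below as well. In NTera2 TRAF6 averaged 14.9 ± 1.31 CPM with OPG, 14.7 ± 1.23 with denosumab and 14.04 ± 1.14 with RANKL, against 14.1 ± 1.26 CPM with vehicle (SD, n = 4 each).

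MAP3K14 had 9.66, 12.5, 12.1 and 9.54 CPM in TCam-2 with denosumab, against 13.3, 14.8, 11.7 and 17.8 CPM with vehicle. The groups overlapped, and replicate 3 was higher with denosumab than with vehicle. The log2 fold change of -0.43 (SE 0.159) had an unadjusted p of 0.0127 in a test across all genes and an adjusted p of 0.731 by edgeR. In NTera2 it was 0.12 with denosumab.

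The smallest adjusted p of the 60 values belonged to SRC in NTera2, which had 57.5, 69.3, 65.8 and 53.8 CPM with RANKL, against 70.3, 77.1, 72.0 and 75.1 CPM with vehicle. Every RANKL library lay below every vehicle library, and RANKL was lower in 4 of 4 same-passage pairs. The share of all genes with such a pattern was not counted. The change was -0.24 on the log2 scale (SE 0.0726) with an adjusted p of 0.368 by edgeR, and over all alternatives tried it lay between -0.30 and -0.19 with adjusted p between 0.0627 and 0.906. The lowest of these came from the fit with the passage as a replicate block. With OPG SRC averaged 68.0 ± 4.01 CPM and with denosumab 70.1 ± 2.37 CPM, against 73.6 ± 3.05 CPM with vehicle, and in TCam-2 the log2 fold change with RANKL was 0.08. TRAF2 was the other NTera2 value with an unadjusted p under 0.05, at -0.17 with RANKL (adjusted p 0.453 by edgeR).

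The remaining genes gave the following ranges over the 6 comparisons. GAB2 lay between 0.01 and 0.19, CBL between 0.03 and 0.19, TAB1 between -0.25 and -0.06, TRAF3 between -0.20 and 0.04, TRAF2 between -0.21 and -0.04, TAB2 between 0.07 and 0.22 and TRAF5 between -0.24 and 0.13. In NTera2, GAB2 was higher with denosumab than with vehicle in 4 of 4 same-passage pairs, and the groups did not overlap. None of the values of these genes passed the test, and comparisons within a line share their vehicle libraries.

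The inhibitors were also set against RANKL. In the 4 comparisons, 0 of the 10 genes were called by edgeR or DESeq2, beside 0% of all genes, and the 40 log2 fold changes lay between -0.26 and 0.19 with the smallest adjusted p at 0.887. Over all genes an unadjusted p under 0.05 by edgeR was reached by 855 (OPG) and 155 (denosumab) in TCam-2 and by 870 (OPG) and 756 (denosumab) in NTera2, and DESeq2 called 0 in each. The 2 values of the 10 genes with an unadjusted p under 0.05 were in NTera2 with denosumab: SRC at 0.19 and TRAF3 at -0.21. TRAF3 had 18.3, 22.1, 23.0 and 19.8 CPM with denosumab, against 25.01, 25.7, 24.01 and 21.4 CPM with RANKL, and these ranges overlapped, although denosumab was lower in 4 of 4 same-passage pairs. Against vehicle, denosumab was lower for TRAF3 in 4 of 4 pairs with no overlap, at -0.18 (adjusted p 0.757 by edgeR). The lowest of the 40 values, -0.26, was MAP3K14 in NTera2, which had 8.93, 8.75, 8.04 and 9.28 CPM with OPG, against 10.03, 11.4, 9.68 and 10.8 CPM with RANKL. These groups did not overlap and OPG was lower in 4 of 4 pairs, with an unadjusted p of 0.0697 in the test across all genes and an adjusted p of 0.913 by edgeR.

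Whether a treatment acted differently in the lines was tested by the interaction of line and treatment over all 32 libraries. For OPG, denosumab and RANKL alike 0 of the 10 genes passed by edgeR or DESeq2, beside 0% of all genes, with 999, 918 and 1004 of all 19216 genes at an unadjusted p under 0.05 and 0, 0 and 2 called by DESeq2. The 30 values lay between -0.50 and 0.37. The extremes were MAP3K14 with denosumab (-0.50, SE 0.212) and SRC with RANKL (0.37, SE 0.117), with adjusted p of 0.950 and 0.903 by edgeR.

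TCam-2 vehicle replicate 4 stood at an end of the 16 TCam-2 libraries for 7 of the 10 genes, highest for 3 and lowest for 4. Its CBL level of 81.4 CPM and its MAP3K14 level of 17.8 CPM are examples. The next library, TCam-2 denosumab replicate 4 of the same passage, did so for 4, at the opposite end for MAP3K14, TRAF2 and TAB2. Such ends were not counted over all genes. The vehicle library was singled out on these same genes, and all 30 TCam-2 log2 fold changes against vehicle share its group. A move towards 0 without it was therefore largely set in advance. Without TCam-2 vehicle replicate 4, 23 of the 30 were nearer 0. With denosumab MAP3K14 was -0.31 and TRAF6 0.24, and with RANKL MAP3K14 was -0.10, in place of -0.22, and CBL 0.06, in place of 0.19. TRAF2 with RANKL was -0.12 without it, in place of -0.21, TAB2 with RANKL was 0.15, and TRAF6 with OPG and RANKL 0.22 and 0.23. None was called with or without it. The 2 libraries of RIN under 8 were also left out, which kept replicates 1 and 3 of TCam-2 RANKL. Then 7 of the 10 genes were called between the lines with RANKL and 0 for RANKL against vehicle in TCam-2. These counts were the same as with all libraries. The values against vehicle did move. Without the libraries of low RIN, TRAF6 with RANKL was 0.41 (SE 0.134, adjusted p 0.275 by edgeR), in place of 0.27. TRAF5 was 0.19 (SE 0.241, adjusted p 0.743 by edgeR), in place of -0.04. TRAF5 had 8.82 CPM in replicate 1 and 5.46 CPM in replicate 3, against 4.90 and 5.14 CPM in the replicates left out. The part of RNA quality in these moves was not tested.

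The other genes of the pathway were followed with a list of 30 genes, the receptor RANK itself (TNFRSF11A) with downstream and regulatory genes. RANK averaged 2.18 ± 1.04 CPM in TCam-2 and 7.31 ± 0.806 CPM in NTera2 vehicle libraries (SD, n = 4 each). Of the list, 29 genes were tested between the lines and BIRC3 was not. In vehicle libraries 13 were higher and 10 lower in TCam-2, and 6 did not pass; with OPG the counts were 13 and 11, with denosumab 14 and 10 and with RANKL 13 and 10. Over all genes tested the share called in either direction was 76.2% in vehicle libraries, 76.2% with OPG, 79.7% with denosumab and 74.3% with RANKL, so the share of the list is near that of all genes. The median log2 fold change was 0.06 in vehicle libraries, beside -0.01 over all genes. The largest among the higher genes were SYK (3.93; a tyrosine kinase that couples ITAM receptors), TRAF4 (1.82), MAPK9 (1.49; the kinase JNK2) and CHUK (1.35; IKK-alpha, the kinase that MAP3K14 activates). SYK averaged 19.6 ± 0.589 CPM in TCam-2 and 1.30 ± 0.384 CPM in NTera2 vehicle libraries, and TRAF4 590.3 ± 33.0 CPM in TCam-2 and 167.4 ± 5.39 CPM in NTera2 (SD, n = 4 each). Among the lower genes the largest were VAV3 (-5.55), BTK (-4.40; a Tec-family kinase), FHL2 (-3.29; a binding partner of TRAF6) and TRAF1 (-2.93). VAV3 and BTK rested on 5 and 4 counts in all TCam-2 vehicle libraries together, and on 325 and 119 counts in those of NTera2. FHL2 averaged 5.16 ± 0.876 CPM in TCam-2 and 50.3 ± 2.28 CPM in NTera2 vehicle libraries. IKBKG (1.12) has a near-identical pseudogene copy, so its value is uncertain. In the 6 treatment comparisons 0 of the 29 genes tested in NTera2 and 0 of the 27 tested in TCam-2 were called by edgeR, with between 0 and 2 of them at an unadjusted p under 0.05 in each.

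**Figure D5:**
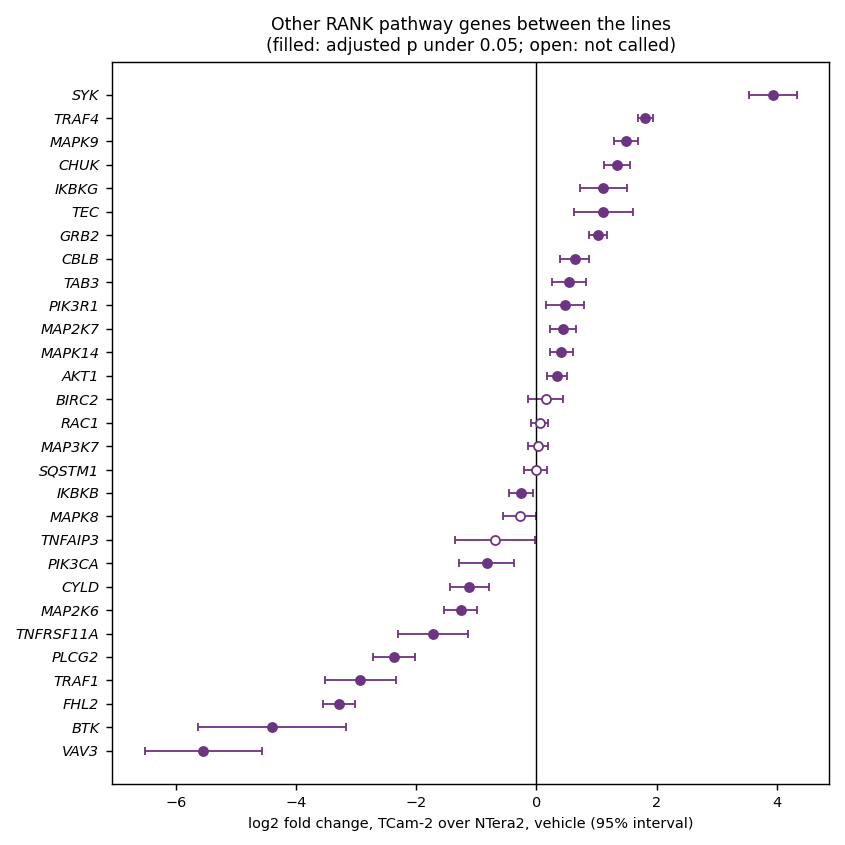
Log2 fold change of TCam-2 over NTera2 in vehicle libraries (x axis) for the 29 tested genes of the wider RANK pathway list (rows), with 95% intervals; filled points passed an adjusted p of 0.05 by edgeR. SYK is at 3.93 and VAV3 at -5.55, with 13 genes called higher and 10 lower, beside 76.2% of all genes called in either direction.

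For each of the 10 genes, the gene with the most similar profile was sought among 19206 others, as the smallest root mean square difference of log2 CPM over 32 libraries after each profile was centred on its own mean. For GAB2 it was AMOTL1 (0.11), for TAB2 CLTC (0.0818), for TRAF5 P3H1 (0.169), for TRAF3 NUDT16 (0.151), for SRC CAPN1 (0.0884) and for TRAF2 RPL29 (0.0902). For TRAF6 it was KPNA1 (0.101), for MAP3K14 CCHCR1 (0.179), for TAB1 FAU (0.125) and for CBL ANKRD17 (0.0824). The Pearson correlation with the nearest gene lay between 0.649 (TAB1) and 0.996 (GAB2). TAB1 itself had a log2 SD of 0.165 over the 32 libraries and TRAF5 of 1.24, so these differences do not rank the matches. The SD, the correlations and the matches all hold the difference between the lines. Shared regulation of a gene and its match was not tested.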

How the data were processed

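The deposited values were raw read counts per gene. Per the submitters' processing notes, bcl2fastq 2.20.0, STAR 2.7.9a and featureCounts 1.6.2 were used with GRCh38/hg38. Which annotation release and strand setting featureCounts had is not given in the sources used here. Per the labels' protocols, stranded libraries were read as 52-bp pairs. The deposited table also held gene length, chromosome, start and end, which are values other than a count. All 32 count columns matched a sample and 0 were left over.

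The fits used edgeR 4.0.16 under R 4.3.3 (TMM factors, genes kept by filterByExpr, robust quasi-likelihood F test, Benjamini-Hochberg over all genes tested), and an adjusted p under 0.05 was called. The 8 libraries of a treatment gave each line comparison, the 16 of a line its treatment comparisons, and all 32 the interactions, 17 comparisons in all. CPM used TMM factors over 32 libraries. Alternatives were RLE factors, library totals alone, no filter on low counts, DESeq2 1.42.0, a replicate block, a fit of all 32 libraries, leaving out libraries of low RIN and leaving out each library. Promoter letters came from RefSeq GRCh38.p14.

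The 10 genes and the lists were chosen with earlier results of these data known. All 10 are named, with the 4 called pathway genes of largest change in each direction and 1 nearest profile for each. The labels give passages 118, 120, 121 and 122 for TCam-2 and 27, 29, 30 and 31 for NTera2, so a replicate number marks a shared passage within a line. Deviations from the group means over 9953 genes correlated with a median between 0.0553 and 0.342 within a passage and between -0.211 and -0.0656 across passages. Single pairs within a passage lay between -0.291 and 0.634. Deviations within a group of 4 sum to 0, so values below 0 across passages were partly set in advance. The same replicate numbers are used in both lines, but they mark different passages in each. The labels call the experiments independent; p-values measure the spread between these cultures.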

Additional observations from a re-analysis of the deposited data

Results flagged for a closer look

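In 5 of the 80 groups of 4 libraries (10 genes in 8 groups), 1 library lay far from the other 3, with a gap to its neighbour, as a share of the whole range, above Dixon's 95% critical value; chance flags about 1 group in 20. TRAF3 was at 11.83 CPM in TCam-2 denosumab replicate 3, against 11.03 to 11.13 CPM in the other 3, a small gap in a tight group. TRAF5 was at 8.82 CPM in TCam-2 RANKL replicate 1, against 4.90 to 5.46 CPM. TRAF6 was at 15.75 CPM in NTera2 RANKL replicate 1, against 13.35 to 13.59 CPM, and at 16.51 CPM in NTera2 denosumab replicate 2, against 13.83 to 14.24 CPM. CBL was at 122.0 CPM in NTera2 vehicle replicate 3, against 111.2 to 113.0 CPM.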

How the results depend on the processing

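Under every alternative run, the number of the 10 genes called stayed between 7 and 8 for vehicle, RANKL and denosumab and between 8 and 9 for OPG in the line comparisons, and at 0 in the 13 treatment, inhibitor and interaction comparisons. With the replicate block 0 of the 10 genes were called for any treatment. In the line comparisons a shared number joins different passages and pairs no samples, so the block is not read there. Over all genes the paired fit called 30 in NTera2 with denosumab, 2 in TCam-2 with denosumab, 1 in the denosumab interaction and 0 in the other 10. Without a filter on low counts, 237 were called in NTera2 with denosumab, 176 in NTera2 with RANKL, 54, 28 and 51 in TCam-2 with OPG, denosumab and RANKL, and between 0 and 32 in the rest. Leaving out 1 library called at most 29 (NTera2 denosumab) and at most 1 in the other 12. The cause was not tested.

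Scaling by library totals alone moved the median of all genes between the lines in vehicle libraries to -0.17 from -0.01, and with it GAB2 to 2.44 and TRAF5 to -2.45. It added TAB1 with RANKL (-0.31) and denosumab (-0.31) and CBL with OPG (-0.21). The fit of all 32 libraries added TRAF6 with vehicle (adjusted p 0.0322 by edgeR). CBL with RANKL was called without TCam-2 RANKL replicate 2 (0.20) and TAB1 with denosumab without NTera2 denosumab replicate 1 (-0.21). No called value reversed. Each line comparison rests on 4 libraries a line, and changes smaller than the intervals given cannot be seen at this number.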
